A study of Mus musculus with 4 samples.

Results

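Callus osteoclasts, the bone-resorbing cells of the healing fracture, were described from scRNA-Seq of 2 callus libraries, 1 from control mice and 1 from mice given glucocorticoids (GCs). A barcode was counted as an osteoclast when it held at least 2 unique molecular identifiers (UMIs, which count captured mRNA molecules) of Acp5 and at least 2 of Ctsk, and when both genes together made up at least 0.2% of its UMIs. It also had to hold at least 500 UMIs and 200 genes, at most 10% mitochondrial UMIs, and less than 1% each of Col2a1 and of Col1a1 plus Col1a2, the collagens of cartilage and bone. This gave 175 osteoclasts among the 14451 callus barcodes that passed the filters on UMIs, genes and mitochondrial share, 82 from control and 93 from GC. All mice were C57BL/6J males, 20 weeks old per the labels, and samples were collected at week 2. The GC group received prednisolone at 6.25 mg/kg/d and the control group a placebo. The labels describe implanted slow-release pellets for every sample, whereas the study's own text describes injections for mice with a fracture, and the number of mice behind a library was not given. Bone was digested with collagenase and dispase and passed through a 70 µm strainer, and trabecular bone of each group gave 1 further library. With 1 library per condition there was no replicate, so no test was run. The intervals given are 95% intervals that cover counting error only, and the condition and the library cannot be told apart.

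Osteoclasts are giant cells that form when monocyte precursors fuse under the cytokines M-CSF, which binds Csf1r, and RANKL, which binds the receptor RANK (Tnfrsf11a). The transcription factor Nfatc1 then turns on the genes for fusion and resorption, and the sealed cell dissolves mineral with acid from a proton pump and digests collagen with cathepsin K (Ctsk). In a callus, these cells and related cells remove mineralized cartilage while bone replaces it, and GC excess is a known cause of bone loss.

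The promoters of Ctsk and Acp5, the genes that chose the cells, are shown with that of Oscar, an osteoclast receptor. They run from 250 bases before to 50 after the RefSeq start (GRCm38.p6), and the capitals mark the letters GGAAA (NFAT core), GGAAGT (PU.1 core), TGANTCA (AP-1 site) and CATGTG (MITF and TFE site) on either strand.
Ctsk: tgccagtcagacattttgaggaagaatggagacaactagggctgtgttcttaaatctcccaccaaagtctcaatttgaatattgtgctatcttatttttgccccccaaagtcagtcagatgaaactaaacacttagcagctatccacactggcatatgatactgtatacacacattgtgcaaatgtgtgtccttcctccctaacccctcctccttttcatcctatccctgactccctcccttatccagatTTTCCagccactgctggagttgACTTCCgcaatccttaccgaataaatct
Acp5: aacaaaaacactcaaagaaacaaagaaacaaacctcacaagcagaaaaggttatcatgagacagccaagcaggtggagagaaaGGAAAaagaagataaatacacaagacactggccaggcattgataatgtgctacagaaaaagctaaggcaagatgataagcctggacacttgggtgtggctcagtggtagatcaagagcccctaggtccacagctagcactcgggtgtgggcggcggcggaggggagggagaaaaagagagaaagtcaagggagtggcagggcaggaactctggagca
Oscar: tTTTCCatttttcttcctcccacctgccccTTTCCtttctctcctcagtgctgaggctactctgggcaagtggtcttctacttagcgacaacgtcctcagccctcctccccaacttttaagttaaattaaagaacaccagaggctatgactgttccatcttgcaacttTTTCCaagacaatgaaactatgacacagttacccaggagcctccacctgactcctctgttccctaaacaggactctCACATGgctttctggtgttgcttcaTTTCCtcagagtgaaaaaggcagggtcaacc
The Ctsk window lies at chr3:95498960-95499259 on the plus strand, the Acp5 window at chr9:22135697-22135996 on the minus strand (the most upstream of 3 listed starts) and the Oscar window at chr7:3616108-3616407 on the minus strand. Oscar held 4 NFAT cores and 1 MITF and TFE site, Acp5 held 1 NFAT core, and Ctsk held 1 NFAT core and 1 PU.1 core. Of all 27025 promoters in the reference, 61.3% held the NFAT core, 24.1% the PU.1 core, 7.92% the AP-1 site and 14.1% the MITF and TFE site. Of the 20 genes with the highest fold of osteoclasts over the other callus barcodes, 14 matched a promoter. Ctsk and Acp5 are among the 20 genes by the rule itself. Of the 14 promoters 12 held the NFAT core, 4 the PU.1 core, 3 the AP-1 site and 0 the MITF and TFE site. These are matches of short letters in a fixed window and show no binding.

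The label was checked against the marker genes. Ctsk and Acp5 chose the cells, and all 82 and 93 cells held both. Mmp9, a gelatinase of osteoclasts, had a UMI in 72 of 82 control and 87 of 93 GC osteoclasts. Atp6v0d2, an osteoclast subunit of the proton pump, had one in 81 and 91 cells, and Nfatc1 in 78 and 85 cells. All 5 genes were found together in 69 of 82 and 78 of 93 cells. The cells were deeply sequenced, with a median of 21389.5 UMIs and 4473.5 genes in control and 18307 UMIs and 4168 genes in GC. Median mitochondrial shares were 4.11% and 4.87%. After each cell was thinned to 1000 UMIs, which left out 2 of 175 osteoclasts, 59.5% of osteoclasts held Mmp9, 48.0% Atp6v0d2 and 40.5% Nfatc1. In B cells, which should lack the first and second of these genes, the thinned shares were 1.62%, 0.270% and 11.6%, at median depths before thinning of 2208 and 2377 UMIs. Without thinning, the osteoclast shares were 90.9%, 98.3% and 93.1%. The RNA of barcodes with 10 to 100 UMIs in the control library, which hold free RNA, carried Mmp9 at 113 CPM (UMIs of a gene per 1000000 UMIs), Atp6v0d2 at 19.3 CPM and Nfatc1 at 249 CPM. In the control osteoclasts, Mmp9 stood 23.1-fold, Atp6v0d2 41.1-fold and Nfatc1 2.84-fold above this free RNA. Ctsk and Acp5 were used by the rule, so the check of the name rests on Mmp9 and Atp6v0d2 rather than on Nfatc1.

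**Figure D1:**
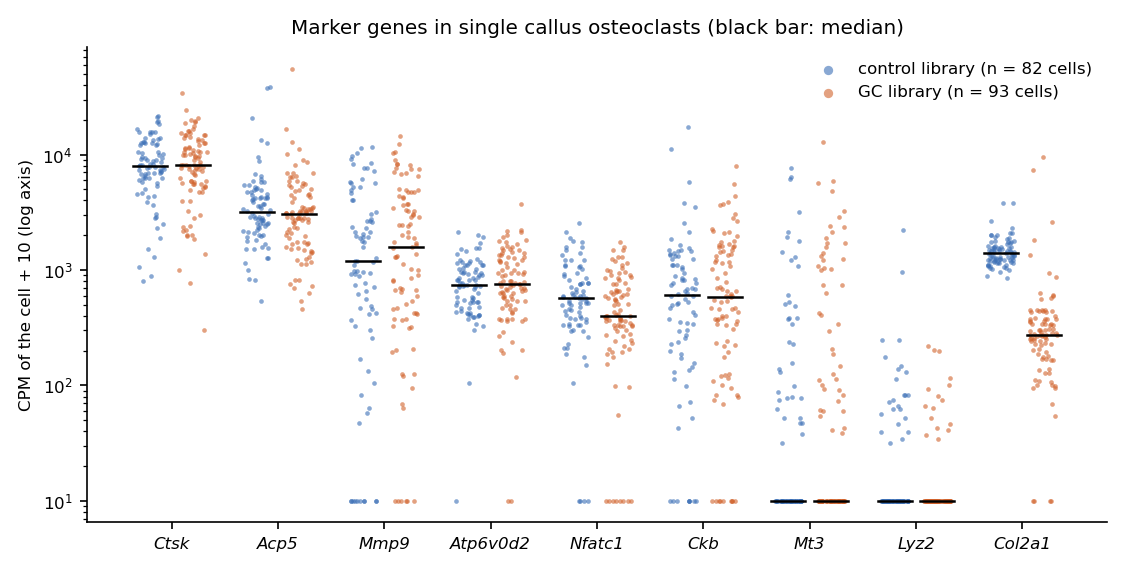
CPM of single osteoclasts, with 10 added and on a log axis, for 9 genes. Each point is a cell of the control library (82) or the GC library (93) and black bars are medians. Atp6v0d2 forms 1 band in both libraries, Mmp9 and Mt3 spread widely, Lyz2 is at 0 in most cells, and Col2a1 sits higher in the control library.

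Osteoclasts made up 1.15% of callus barcodes in the control library (95% Clopper-Pearson interval 0.915% to 1.42%) and 1.27% in the GC library (1.03% to 1.55%). The GC share was 1.11 times the control share, and its interval of 0.813 to 1.51 includes 1. They held 1.96% and 2.69% of the UMIs of these barcodes. Most of the callus Acp5 signal was in these few cells, with 82.3% of its UMIs in control and 81.5% in GC. They also held most of the Ctsk signal, with 67.1% and 71.1%. The rule chose the cells by these genes, so these percentages are partly set by it. No barcode was shared between the osteoclasts of both libraries, and 12 were shared among all callus barcodes that passed. The same limits found 0 osteoclasts among 3977 control and 0 among 4788 GC barcodes of trabecular bone. With the limit set at 3 counts of the total, this allows shares of captured barcodes of up to 0.0754% and 0.0627%. The study counted osteoclasts on stained trabecular bone, so these limits do not describe the tissue. Whether large cells were lost at the strainer or before capture, in either tissue, was not tested. A doublet score would have removed 4 of 82 and 3 of 93 osteoclasts, and no cell was removed for it.

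The share depended on the collagen and mitochondrial limits. With at most 5% mitochondrial UMIs the shares were 0.777% in control and 0.737% in GC, and their ratio turned to 0.948. Barcodes that met every other limit but held too much collagen numbered 5 in control and 69 in GC. The 5 in control had a median of 41179 UMIs, and all held Tyrobp, a signaling adaptor of myeloid cells, and Atp6v0d2. The 69 in GC had a median of 4319 UMIs, and 58 held Mmp9, 26 Atp6v0d2 and 19 Tyrobp. With them counted, the GC share was 2.21% and the ratio of shares 1.82. Whether they are osteoclasts, other cells with free RNA or mixed droplets was not tested. At the limit on Acp5 plus Ctsk, the lowest osteoclasts stood at 0.257% in control and 0.241% in GC, and the nearest barcodes outside at 0.199% and 0.170%. This limit alone kept out 16 barcodes in control and 9 in GC, and the mitochondrial limit alone kept out 11 and 13.

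The osteoclasts were then set against their relatives in the same callus, 98 macrophages chosen by C1q genes and 824 C1q-low monocytes chosen by Csf1r and Lyz2, with 376 B cells as background. Values are CPM of the summed UMIs, control first and GC second. The classes were cut from their own values, so what follows is a description. Over both libraries 10.7% of 7096 genes were at least 2-fold higher in osteoclasts than in macrophages and 10.3% at least 2-fold lower. Against monocytes, 18.5% of 8477 genes were higher and 14.3% lower.

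Most of the acid-secreting machinery was high. Of 22 genes tested for acid secretion, 16 were at least 2-fold higher in osteoclasts than in macrophages, 18 higher than in monocytes, and 0 were lower in either comparison. The list median was 1.43 on the log2 scale against macrophages and 1.92 against monocytes, whereas the medians of all genes were 0.08 and 0.17. Atp6v0d2 stood at 795 and 962 CPM in osteoclasts, 11.5 and 76.6 CPM in macrophages and 13.9 and 5.33 CPM in monocytes. Tcirg1, the osteoclast a3 subunit of the pump, was at 466 and 426 CPM, against 152 and 216 CPM in macrophages and 95.1 and 138 CPM in monocytes. The pump needs protons and a counter-ion. Car2, the carbonic anhydrase that supplies protons, was at 169 and 201 CPM in osteoclasts and had no UMI in macrophages. Slc4a2, the exchanger of chloride for bicarbonate, was at 162 and 213 CPM, against 11.5 and 33.3 CPM in macrophages. Clcn7, the chloride transporter of the resorbing membrane, was at 79.0 and 136 CPM, against 36.7 and 49.9 CPM. All these genes were high in both libraries.

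Ctsk and Acp5 chose the cells and were left out of the protease counts, and the other proteases did not move as a block. Mmp9 was at 2614 and 3156 CPM in osteoclasts, 11.5 and 3.33 CPM in macrophages and 19.4 and 4.27 CPM in monocytes. Of 10 proteases and related genes tested, however, only 1 was at least 2-fold higher in osteoclasts than in macrophages and 5 were lower, while 3 were higher and 2 lower than in monocytes. Ctsb, a general lysosomal protease, was at 981 and 1415 CPM in osteoclasts and 4268 and 7165 CPM in macrophages. Ctss, a cathepsin used in antigen presentation, was at 180 and 151 CPM against 1623 and 2424 CPM. The osteoclasts therefore combined a high Mmp9 level with lower levels of these macrophage cathepsins.

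Among receptors and regulators, levels differed gene by gene. Csf1r was at 364 and 516 CPM in osteoclasts, 315 and 466 CPM in macrophages and 340 and 421 CPM in monocytes, a narrow range. The monocyte level is partly set by the rule, which required Csf1r in those cells. Tnfrsf11a was at 140 and 144 CPM, against 73.5 and 63.3 CPM in macrophages and 14.7 and 13.9 CPM in monocytes. Oscar was at 32.6 and 70.8 CPM in osteoclasts and had no UMI in macrophages. The fusion genes did not move as a block either. Of 9 tested, 3 were at least 2-fold higher and 4 lower than in macrophages, and the same counts held against monocytes. Dcstamp, needed for cell fusion, was at 139 and 152 CPM, against 4.59 and 0 CPM in macrophages, and Ocstamp, its partner, was at 103 and 119 CPM against 2.30 and 0 CPM. Nfatc1 was at 706 and 547 CPM in osteoclasts and 66.6 and 43.3 CPM in macrophages, but all other callus barcodes held 343 and 278 CPM. Spi1, which encodes the myeloid factor PU.1, was at 693 and 697 CPM against 367 and 509 CPM.

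The monocyte and macrophage program was low. All 8 genes tested of this list were at least 2-fold lower in osteoclasts than in macrophages, and all 10 tested were lower than in monocytes, which is partly set by the rules that chose those classes. Lyz2, the lysozyme of phagocytes, was at 42.3 and 17.6 CPM in osteoclasts, 8311 and 9356 CPM in macrophages and 5086 and 5512 CPM in monocytes. It was found in 3 of 173 thinned osteoclasts (1.73%), against 94.8% of thinned macrophages, 94.0% of monocytes and 2.96% of B cells, so its osteoclast level was at background. Ccr2, the monocyte chemokine receptor, was at 2.86 and 0 CPM and Adgre1, which encodes F4/80, at 2.29 and 0 CPM. H2-Aa, an MHC class II chain, was at 46.9 and 19.3 CPM, against 2009 and 1758 CPM in macrophages. Apoe was at 360 and 231 CPM, against 4764 and 5610 CPM.

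Among the energy genes, those of oxidative phosphorylation stood out. Of 16 genes of oxidative phosphorylation tested, 15 were at least 2-fold higher than in macrophages and 16 higher than in monocytes, with list medians of 1.63 and 2.22 on the log2 scale. Ndufa4, a respiratory chain subunit, was at 1737 and 1599 CPM in osteoclasts, 503 and 420 CPM in macrophages and 372 and 304 CPM in monocytes. Atp5b, a subunit of the ATP synthase, was at 1112 and 1278 CPM, against 344 and 396 CPM in macrophages. Ppargc1b, the coactivator of mitochondrial genes, was at 93.3 and 93.1 CPM, against 0 and 6.66 CPM. Ckb, the brain-type creatine kinase that buffers ATP, was at 798 and 1160 CPM, against 158 and 173 CPM. Glycolysis did not stand out in this way, with 1 of 14 genes at least 2-fold higher than in macrophages and 1 lower. Of the genes of fatty acid uptake and oxidation, 2 of 17 tested were at least 2-fold higher and 3 lower than in macrophages, with a list median of 0.45 on the log2 scale. Against monocytes, 10 of 19 were higher and 3 lower, with a median of 1.01. Cd36, the fatty acid receptor that macrophages carry, was at 5.72 and 4.68 CPM in osteoclasts, 197 and 243 CPM in macrophages and 240 and 394 CPM in monocytes. Acaa2, the last enzyme of mitochondrial beta-oxidation, was at 129 and 117 CPM, against 36.7 and 16.6 CPM in macrophages and 15.1 and 9.07 CPM in monocytes.

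**Figure D2:**
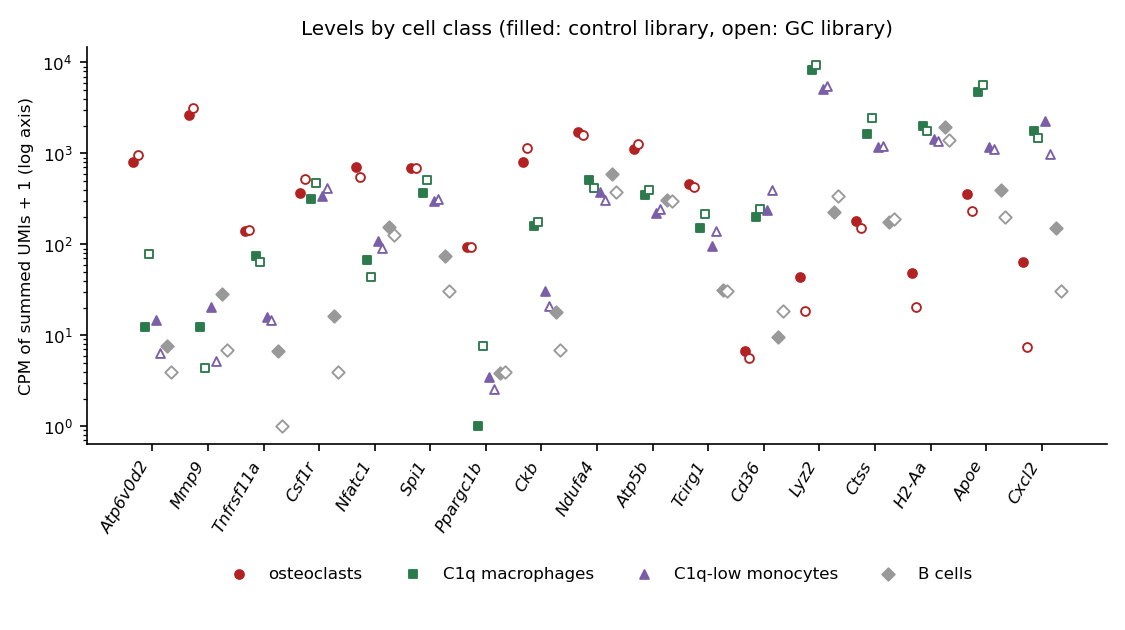
CPM of summed UMIs, with 1 added and on a log axis, for 17 genes in osteoclasts, C1q macrophages, C1q-low monocytes and B cells. Filled symbols are the control library and open symbols the GC library. Osteoclasts lie highest for Atp6v0d2, Mmp9, Ckb, Ndufa4, Atp5b and Tcirg1 and far below macrophages and monocytes for Cd36, Lyz2, H2-Aa and Apoe.

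The osteoclasts were not uniform. They were ordered by the Acp5 plus Ctsk share that chose them and divided into 4 bins, of 0.2% to 0.5%, 0.5% to 1%, 1% to 2% and 2% or more. The bins held 9, 23, 38 and 12 control cells and 13, 24, 41 and 15 GC cells. Median depth was 20466, 23912, 22695.5 and 18556 UMIs in control and 14352, 18117.5, 18083 and 22509 UMIs in GC, so in control the highest bin was also the shallowest. The median mitochondrial share rose with the bins, from 2.99% to 5.42% in control and from 3.05% to 6.29% in GC, and its part in the order was not tested. As each bin is a sum over few cells and the bins use the genes of the rule, the order is a description. Mmp9 was at 30.7 CPM in the lowest and 6960 CPM in the highest control bin, and at 387 and 8049 CPM in GC. Itgb3, the beta chain of the integrin that seals the cell to bone, went from 5.12 to 138 CPM in control and from 9.56 to 349 CPM in GC. Oscar went from 0 to 176 CPM and from 0 to 264 CPM. Ckb went from 179 to 2241 CPM and from 105 to 3244 CPM. Each of these genes was higher in the highest than in the lowest bin in both libraries. Nfatc1 and Tnfrsf11a varied less, Nfatc1 between 496 and 870 CPM in control and 397 and 612 CPM in GC.

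Mt3, a metallothionein best known from brain, showed a steep course. It was at 5.12, 5.89, 301 and 1206 CPM across the control bins and at 14.3, 98.8, 320 and 2874 CPM across the GC bins. It was found in 37 of 82 and 46 of 93 osteoclasts. In C1q macrophages it was at 0 and 3.33 CPM, in monocytes at 1.68 and 1.07 CPM and in all other callus barcodes at 1.19 and 3.56 CPM. Over all callus barcodes of both libraries pooled, Mt3 ranked 4th of the genes by fold of osteoclasts over the rest, at 69.6-fold with 5 CPM added. The genes before it were Acp5 and Ctsk, which the rule used, and Atp6v0d2. Mmp9 followed at 66.3-fold, Slc9b2, a sodium and proton exchanger, at 39.5-fold, and Slc37a2, a sugar phosphate transporter, at 33.8-fold. Within each library this order did not hold, as Mt3 stood below Mmp9 in control and above Atp6v0d2 in GC. Free RNA of the control library carried Mt3 at 29.4 CPM, and the control osteoclasts stood 9.39-fold above it.

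Genes of division took the opposite course. Mki67, which marks dividing cells, was at 205 CPM in the lowest and 5.51 CPM in the highest control bin, and at 76.5 and 9.10 CPM in GC. Top2a, needed to separate chromosomes, was at 328 and 0 CPM and at 105 and 6.07 CPM. In GC both genes were highest in the second bin, Mki67 at 137 CPM. At least 5 UMIs of Mki67 or Top2a were found in 7 of 82 control and 11 of 93 GC osteoclasts. These cells had a median Acp5 plus Ctsk share of 0.554% in control and 0.892% in GC, against 1.19% and 1.30% in the others. Mmp9 in them was at 436 CPM in control and 2070 CPM in GC, and Mt3 at 0 and 89.5 CPM. Their median depth was 30852 and 24375 UMIs, above that of the others at 21206 and 17573 UMIs. Whether they are dividing precursors, or droplets that hold an osteoclast with a dividing cell, was not tested.

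**Figure D3:**
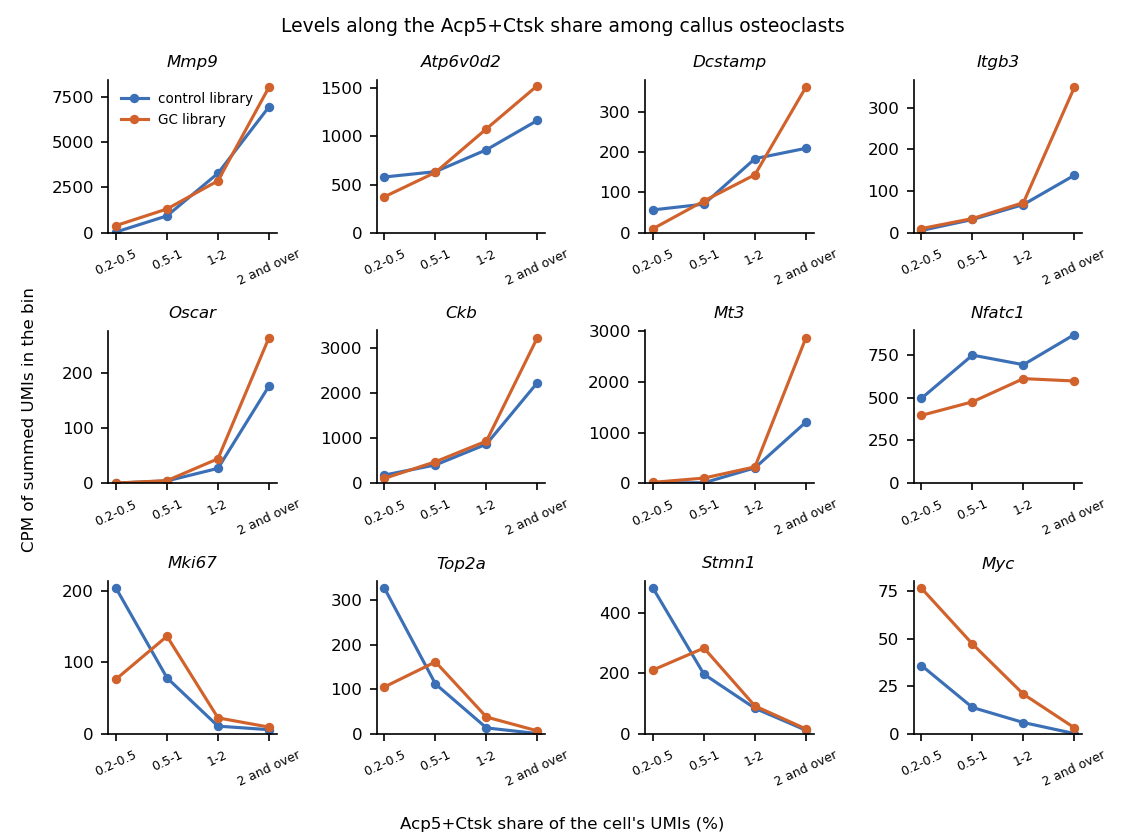
CPM of summed UMIs of 12 genes in 4 bins of the Acp5 plus Ctsk share, with blue for the control and orange for the GC library. Mmp9, Itgb3, Oscar, Ckb and Mt3 are highest in the bin of 2% and over, and Mki67, Top2a, Stmn1 and Myc are lowest there.

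The comparison of GC with control asked whether the treatment left a trace in these cells. Of 6396 genes with at least 50 UMIs over both sums, 53 (0.829%) were at least 2-fold higher in GC and 43 (0.672%) at least 2-fold lower, with 5 CPM added to each value. Together these were 96 genes (1.5%), and the median log2 ratio of all genes was 0.03. All ratios below are GC over control.

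None of 9 protease genes and none of 22 acid secretion genes tested was 2-fold apart in either direction. With 1.5% of all genes past 2-fold, counts of 0 in lists of this size are near the background and are not a result about these genes. The protease and acid secretion lists had medians of 0.15 and 0.21 on the log2 scale. In all other callus barcodes these medians were 0.03 and 0.24. Mmp9 had a ratio of 1.21 (1.16 to 1.26), a log2 ratio of 0.27 that turned to -0.24 in cells with at most 5% mitochondrial UMIs. Its per-cell median was 1175 CPM in control and 1580 CPM in GC, within a range of 0 to 11617 and 0 to 14530. Atp6v0d2 had a ratio of 1.21 (1.13 to 1.30). Genes of fusion (9 tested, median -0.28), attachment and the actin ring (14, median 0.03), oxidative phosphorylation (16, median -0.09), glycolysis (13, median -0.05), fatty acid uptake and oxidation (16, median -0.05) and apoptosis (5, median 0.01) also had none past 2-fold. Cox4i1, a subunit of cytochrome oxidase, was the farthest respiratory gene at 1545 and 930 CPM. The summed cell cycle list was 499.5 CPM in control and 559.6 CPM in GC, with none of 10 genes past 2-fold.

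Of 9 receptors and adaptors tested 1 was at least 2-fold higher in GC and none lower, with a list median of -0.16 on the log2 scale. Of 15 transcription activators 1 was at least 2-fold higher and none lower, with a median of 0.01. Oscar was at 32.6 CPM in control and 70.8 CPM in GC, a ratio of 2.17 (1.57 to 3.03), and was found in 25 of 82 and 24 of 93 cells. After thinning, Oscar was found in 2 of 81 control and 3 of 92 GC osteoclasts, too few to compare. In 6 of 12 alternative settings its ratio was under 2-fold. Myc, a driver of growth, was at 10.9 and 31.0 CPM, a ratio of 2.85 (1.66 to 5.10), and all other callus barcodes held 65.0 and 114 CPM. In the cells with at least 5 UMIs of Mki67 or Top2a, Myc was at 38.3 and 89.5 CPM. In the other osteoclasts it was at 7.15 and 20.1 CPM, and the part of free RNA or mixed droplets was not tested. Tfrc, the transferrin receptor that brings in iron, was at 239 and 423 CPM (ratio 1.77, 1.57 to 2.01), against 35.9 and 31.2 CPM in the other barcodes. Itgb3 was at 57.2 and 108 CPM (ratio 1.88, 1.47 to 2.43), but its log2 ratio of 0.86 turned to -0.49 when only cells with at most 5% mitochondrial UMIs were kept. Nfatc1 was at 706 and 547 CPM, and Fos, which acts upstream of it, at 332 and 183 CPM. Neither Tfrc, Itgb3, Nfatc1 nor Fos reached 2-fold.

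**Figure D4:**
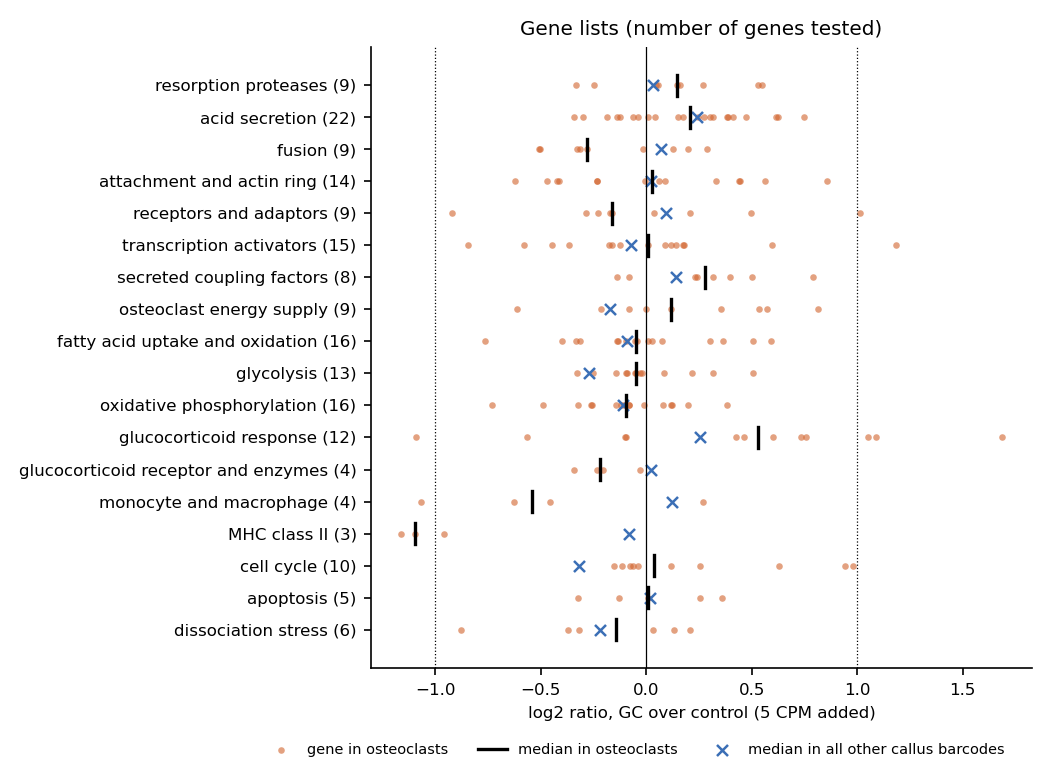
GC-to-control ratios on the log2 scale (5 CPM added) for each gene tested in 18 lists, in osteoclasts (points, with the median as a bar) and the list median in all other callus barcodes (cross). Dotted lines mark 2-fold. Resorption, acid secretion and energy lists lie between these lines, and the glucocorticoid response list reaches furthest to the right.

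The glucocorticoid response list, made of common targets of the glucocorticoid receptor, had the highest median of the lists of osteoclast and GC genes. Of its 15 genes 12 were tested, 8 were higher and 4 lower in GC, 3 were at least 2-fold higher and 1 at least 2-fold lower. The median was 0.53 on the log2 scale, against 0.25 for the same list in all other callus barcodes. Mt2, a metallothionein that binds zinc and copper, was at 104 CPM in control and 344 CPM in GC, a log2 ratio of 1.69, with UMIs in 49 of 82 and 70 of 93 cells. After thinning, Mt2 was found in 8 of 81 control and 23 of 92 GC osteoclasts, while the B cell shares were 5.39% and 12.2%, also higher in GC. The difference between these cell types was not tested. In monocytes the thinned shares were 2.42% and 1.22%. In all other barcodes its log2 ratio was 0.33. Mt1, its neighbor, was at 1050 and 2241 CPM, a ratio of 2.13 (2.02 to 2.26), against 926 and 1205 CPM in the other barcodes. It fell just below 2-fold in 5 of 15 alternative settings, with a lowest log2 ratio of 0.87. After thinning, Mt1 was found in 51.9% of control and 80.4% of GC osteoclasts, and in 12.1% and 21.6% of B cells. Free RNA in the control library carried Mt1 at 953 CPM, close to the control osteoclast level. Klf9, a transcription factor that GCs induce in many tissues, was at 40.6 and 89.6 CPM with UMIs in 29 of 82 and 59 of 93 cells. After thinning, however, Klf9 was found in 4.94% and 7.61% of osteoclasts, against 3.70% and 4.05% of B cells and 12.6% and 12.5% of monocytes. These shares are not read as a difference, and the 2-fold call of Klf9 was lost in 3 of 14 alternative settings.

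The other members of the list were less clear. Dusp1, a phosphatase that dampens MAP kinases, was at 58.9 and 101 CPM, below 2-fold. Tsc22d3, which encodes GILZ, at 53.8 and 94.2 CPM, and Fkbp5, a chaperone of the receptor, at 12.6 and 21.7 CPM, were also below 2-fold. After thinning, Tsc22d3 was found in 6.17% and 9.78% of osteoclasts, 18.9% and 17.6% of B cells and 2.18% and 2.93% of monocytes. For Fkbp5 these shares were 1.23% and 3.26%, 3.03% and 2.70%, and 0.726% and 2.20%. The thinned shares of both genes are not read as a difference. Per1 was lower in GC, at 18.9 and 11.1 CPM. Txnip, an inhibitor of thioredoxin, was at 84.1 and 36.9 CPM, at least 2-fold lower in GC. Nr3c1, which encodes the glucocorticoid receptor, was at 80.7 CPM in control and 79.0 CPM in GC osteoclasts.

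Mt3 was also higher in GC, at 276 CPM in control and 718 CPM in GC, a log2 ratio of 1.36. It fell below 2-fold in 3 of 15 alternative settings, to 0.56 in cells with at most 5% mitochondrial UMIs, 0.61 after thinning and 0.51 from the mean of per-cell CPM. Without the GC cell with the most Mt3 UMIs the log2 ratio was 1.08, and without the control cell with the most 1.67. The 3 metallothionein genes are neighbors on the plus strand of chromosome 8 (GRCm38), Mt3 at 94152607 to 94154146, Mt2 at 94172664 to 94173568 and Mt1 at 94179082 to 94180327. The promoters of Mt2 and Mt3 are printed because both genes were high in GC and belong to this cluster, with the capitals marking TGCNCNC, the core of the metal response element, on either strand.
Mt2: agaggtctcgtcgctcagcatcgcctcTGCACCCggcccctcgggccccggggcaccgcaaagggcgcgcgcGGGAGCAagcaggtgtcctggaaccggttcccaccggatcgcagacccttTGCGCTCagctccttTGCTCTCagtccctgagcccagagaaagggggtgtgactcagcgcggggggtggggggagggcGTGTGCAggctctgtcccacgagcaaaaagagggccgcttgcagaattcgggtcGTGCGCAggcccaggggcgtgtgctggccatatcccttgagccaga
Mt3: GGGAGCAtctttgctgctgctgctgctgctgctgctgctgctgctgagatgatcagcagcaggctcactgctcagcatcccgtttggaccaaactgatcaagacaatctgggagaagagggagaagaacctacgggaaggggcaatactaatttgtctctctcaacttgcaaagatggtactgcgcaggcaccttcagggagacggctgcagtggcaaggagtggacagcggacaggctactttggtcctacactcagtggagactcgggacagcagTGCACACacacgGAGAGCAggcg
The windows are chr8:94172368-94172667 and chr8:94152357-94152656 (GRCm38.p6), both on the plus strand. Mt2 held 6 matches and Mt3 held 3, while 50.4% of all promoters held at least 1. A glucocorticoid receptor site spelled ACANNNTGT was in neither window. Sequence outside the windows was not searched, so this does not show that Mt2 or Mt3 lacks such a site. The same spelling was found in 1 of the 14 promoters of top genes, the Ctsk window printed above, and in 6.88% of all promoters.

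**Figure D5:**
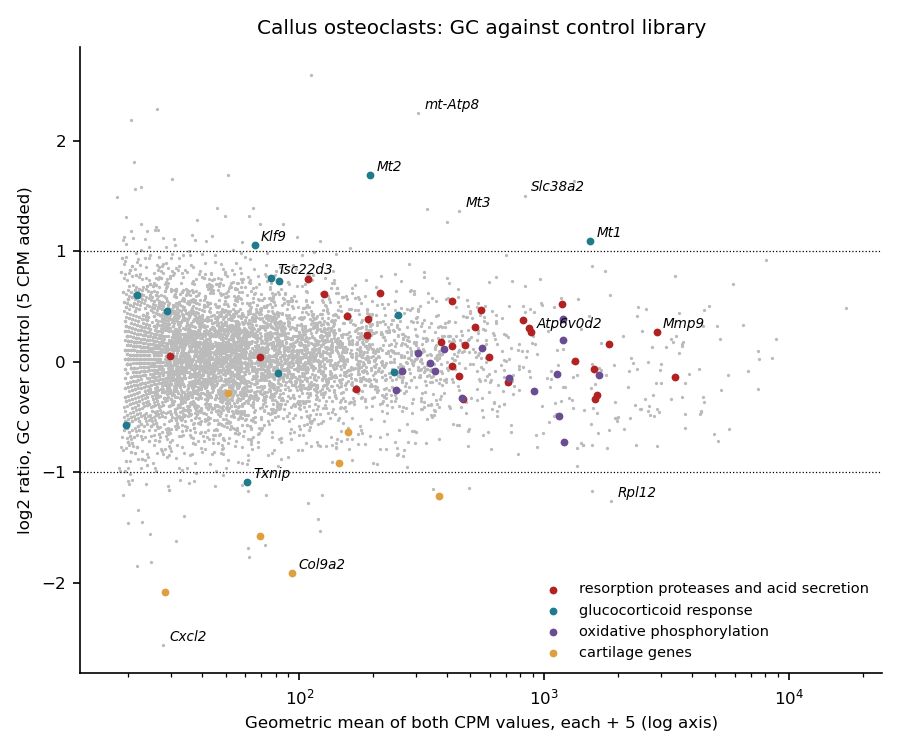
GC-to-control ratios on the log2 scale (5 CPM added) against the geometric mean level of each gene tested in osteoclasts on a log axis. Dotted lines mark 2-fold. Mt1, Mt2 and Mt3 lie above the upper line, Mmp9 and Atp6v0d2 lie between the lines, and the cartilage genes lie below 0.

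Outside the lists, some of the largest ratios were shared with the rest of the callus. mt-Atp8 and mt-Nd4l, mitochondrial genes, had log2 ratios of 2.25 and 1.63 in osteoclasts and 2.07 and 1.38 in all other callus barcodes. Slc38a2, an amino acid transporter, was at 489 and 1395 CPM in osteoclasts, and its log2 ratio in the others was 1.33. Rpl12 and Rps15, ribosomal protein genes with many near-identical copies in the genome and so uncertain, had -1.26 and -1.17 in osteoclasts and -1.22 and -1.23 in the others. These genes therefore differed between the libraries in osteoclasts and other cells alike.

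Other genes had larger ratios in osteoclasts than in the rest. Some of them stood higher in the other callus barcodes than in osteoclasts, and the part of free RNA in their values was not tested. Nr4a2, an early-response nuclear receptor, was at 23.5 and 86.6 CPM, a log2 ratio of 1.69 against 0.56 in the others, which held 102 and 153 CPM. Tmsb10, which binds actin monomers, was at 201 and 533 CPM, 1.38 against 0.73, with 498 and 830 CPM in the others. Fgfr1, a growth factor receptor, was at 34.9 and 99.5 CPM, 1.39 against 0.25, with 312 and 372 CPM in the others. Psmb8, a subunit of the immunoproteasome, was at 190 and 67.9 CPM, -1.42 against -0.26, with 14.9 and 11.7 CPM in the others. Ifi27, an interferon-induced gene, was at 164 and 65.0 CPM, -1.27 against -0.36, with 83.7 and 64.0 CPM in the others. Cd74, the MHC class II invariant chain, was at 183 and 76.7 CPM, -1.20 against -0.22, with 431 and 370 CPM in the others. Its ratio was under 2-fold at most 5% mitochondrial UMIs (-0.81) and from per-cell means (-0.53). Of 3 MHC class II genes tested 2 were at least 2-fold lower. The 8 B and plasma cell genes also summed lower in the GC osteoclasts, at 52.1 CPM in control and 23.4 CPM in GC, with Igkc the most abundant. The differences between osteoclasts and other barcodes were not tested.

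Genes of other cells in the osteoclast barcodes also differed between the libraries. Of 7 cartilage genes tested, all 7 were lower in GC and 4 at least 2-fold lower, and the whole list of 8 summed to 2730 CPM in control and 1108 CPM in GC with Col2a1 the most abundant. No gene of this list was at 0. The list median was -1.21 on the log2 scale and turned to 1.45 without the collagen limits. Col2a1, which the rule limits, was at 1385 and 516 CPM in osteoclasts, 1830 and 1331 CPM in B cells and 1706 and 838 CPM in monocytes, against 44033 and 28780 CPM in all other callus barcodes. Col9a2, a cartilage collagen, was at 177 and 43.3 CPM, a log2 ratio of -1.91 against -0.92 in the other barcodes, and it turned to 0.29 without the collagen limits. The 8 neutrophil genes summed to 231 and 69.7 CPM, S100a9 the most abundant, with Ltf at 0 in GC. The 8 erythroid genes summed to 60.1 and 404 CPM, Hbb-bs the most abundant, with Alas2 at 0 in control and Car1 at 0 in GC. A single GC cell held 56.7% of the GC Hbb-bs UMIs. Neutrophil genes made up at least 1% of the UMIs in 1 cell of each library and hemoglobin genes in 1 GC cell. Whether free RNA or mixed droplets take part in these values was not tested.

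Of 8 inflammatory genes listed, 2 were tested, and 1 of these was at least 2-fold lower in GC. Cxcl2, a neutrophil attractant, was at 62.4 and 6.44 CPM, the lowest ratio of the genes named, with a log2 ratio of -2.56 that was -1.85 without the control cell with the most Cxcl2 UMIs. It was found in 31 of 82 and 6 of 93 cells, or 37.8% and 6.45%, while 13.6% of control and 1.33% of GC B cells held it. After thinning, the shares were 3.70% and 1.09% in osteoclasts, 5.72% in control B cells and 0 of 74 GC B cells, which allows a share of up to 4.05%. The osteoclast shares were therefore no higher than this background and are not read as expression or as a difference. In all other callus barcodes it was at 658 and 190 CPM, and in monocytes at 2266 and 976 CPM. Ptgs2, the inducible cyclooxygenase, was at 41.2 and 43.3 CPM. Among secreted factors that osteoclasts are known to release toward other cells, 8 were tested and none was past 2-fold. Ccl9, a chemokine of osteoclasts, was at 580 and 765 CPM. Spp1, which encodes osteopontin, was at 915 and 1295 CPM, below all other barcodes at 7986 and 8324 CPM and free RNA of the control library at 6895 CPM. After thinning, 58.0% and 51.1% of osteoclasts held Spp1, against 49.5% and 33.8% of B cells, so it is not read as a product of the osteoclasts. Pdgfb, which recruits vessel-associated cells, was at 143 and 169 CPM, against 6.65 and 11.2 CPM.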

How the data were processed

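The deposited matrices hold UMI counts per gene and barcode, made by the authors with Cell Ranger (version 4 per the file headers, version 5.0.1 in the submitters' processing notes, which also name Seurat 3.2.0 and mm10) and not normalized. The control callus matrix held 95852254 UMIs and the GC callus matrix 64388215. The control matrix lists all 6794880 possible barcodes and the GC callus matrix 7762 barcodes of at least 500 UMIs, so free RNA was read from the control library alone. UMIs of each class were summed per library and given as CPM with exact Poisson intervals, ratios with exact conditional intervals and shares with Clopper-Pearson intervals. Ratios between libraries added 5 CPM and needed 50 UMIs over both sums, and a gene was called at 2-fold. Acp5, Ctsk, Col2a1, Col1a1 and Col1a2 were left out of the counts. Doublets were scored at 0.8% per 1000 barcodes. Named genes were those of 31 lists, the 15 highest and 15 lowest ratios among genes of at least 50 CPM in 1 library, and the 20 highest folds over the other callus barcodes. The members and the lists were chosen with earlier results of these data known. Scripts ran in Python 3.11.15 (scikit-learn 1.9.0, scipy 1.17.1, numpy 2.4.6, matplotlib 3.10.9 and pandas 2.3.3). Alternatives covered the member limits, the added CPM, the UMI minimum, the scaling, thinning and removal of doublets, of cells with other-lineage RNA and of the profile of other barcodes. Some genes of the lists are not reported here. Gene positions are those of GENCODE M21.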

Additional observations from a re-analysis of the deposited data

Results flagged for a closer look

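S100a9 and S100a8, neutrophil genes, were lower in GC than in control osteoclasts, with log2 ratios of -1.76 and -1.69, while in all other callus barcodes the ratios were 0.45 and 0.30, of the opposite sign. The difference was not tested, and without the control cell with the most UMIs of each gene the ratios were -1.07 and -0.98. The 2-fold call was lost in 3 alternative settings for S100a8 and in 1 more for S100a9. The log2 ratios of S100a9 and S100a8 were -0.36 and -0.92 without cells of high doublet score, -0.21 and -0.49 when Mmp9 and Atp6v0d2 were also required, and -0.40 and -0.41 without the collagen limits. From the mean of per-cell CPM S100a9 was at 0.016.

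Trabecular bone, which gave no osteoclast by the rule, still held UMIs of the genes that define them. Acp5 had 532 UMIs in control (14.9 CPM) and 736 in GC (18.6 CPM), and Ctsk had 44 (1.23 CPM) and 34 (0.858 CPM). In callus, Acp5 was at 89.2 and 129 CPM and Ctsk at 246 and 373 CPM over all barcodes that passed.

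In the GC callus library, 69 barcodes met every limit but those on collagen, against 5 in control.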

How the results depend on the processing

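The main limit is 1 library per condition, so no difference between GC and control was set against a spread between animals. No paired analysis was possible because each condition has 1 library. The 2 callus matrices also differ in how barcodes were called, and whether this affects the ratios was not tested. Sums weight deep cells more, and low genes rest on few UMIs.

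Of 6 alternative member limits, at most 5% mitochondrial UMIs gave shares of 0.777% in control and 0.737% in GC, and leaving out the collagen limits gave 2.21% in GC and a ratio of shares of 1.82. Genes at least 2-fold higher in GC numbered 301 without the collagen limits, 95 with 1 CPM added, 20 with 20 CPM added, 99 with a minimum of 20 UMIs, 17 with 200 UMIs, 97 from the mean of per-cell CPM and 12 after thinning to 1000 UMIs. Genes at least 2-fold lower numbered 69 at most 5% mitochondrial UMIs, 76 with 1 CPM added and 19 with 20 CPM added. They numbered 76 with a minimum of 20 UMIs, 18 with 200 UMIs and 13 after thinning. The number of genes tested also differed, at 6396 in the main setting and 535 after thinning. These counts are therefore not shares, and a lower count does not show a lower share. Of the 53 higher genes, 25 remained higher at most 5% mitochondrial UMIs, 40 without the collagen limits, 34 from per-cell means and 5 of the 535 genes testable after thinning. The protease median was -0.11 at most 5% mitochondrial UMIs and -0.0216 from per-cell means, the acid secretion median 0.010 and, after thinning, -0.0638, and the fatty acid median -0.51 after thinning, over 2 genes. A median counts as moved outside the counting interval of its middle genes. By this limit the glucocorticoid response median did not move, but it went from 0.53 to 0.80 at most 5% mitochondrial UMIs, 0.76 without the collagen limits, 0.38 with 20 CPM added and 0.94 after thinning, over 1 gene. The oxidative phosphorylation median lay between -0.25 and -0.08. Without the collagen limits, Matn3 (1.62), Col9a2 (0.29), Hapln1 (1.09), Col9a1 (1.90), Col10a1 (0.18) and Col11a2 (1.36) turned to higher in GC, and S100a9 turned to 0.016 from per-cell means. The cause was not tested. Mt2 stayed at least 2-fold higher in all 14 settings that tested it (1.23 to 1.92), Mt1 in 10 of 15 (0.87 to 1.10), Mt3 in 12 of 15 (0.51 to 1.38), Klf9 in 11 of 14 (0.85 to 1.21) and Oscar in 6 of 12 (0.05 to 1.10).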
